A study of Mus musculus with 4 samples.

Results

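Genes of glycolysis and of the hypoxia response were followed in neutrophils of the mouse heart after myocardial ischemia-reperfusion (MI/R). The group was drawn up by name as 34 genes, of which 22 belong to glucose uptake, glycolysis and lactate export and 12 to the hypoxia response, and all 34 were present among the 25655 genes measured. For 33 of them the symbol itself was found, and *Aldoa*, entered as Aldoa_1, was matched by its identifier ENSMUSG00000030695. A further entry, Aldoa_2, had 0 counts in every library. RNA-Seq had been performed on 4 libraries of sorted CD45.2+CD11b+Ly6G+ cells, 1 for either SiglecF subset of either genotype, WT or *Cd300a-/-*, collected on day 3 after MI/R from pools of 8 hearts. The subsets, SiglecF+ and SiglecF- in the labels, are SiglecF hi and SiglecF lo here. WT mice were C57BL/6J, and *Cd300a-/-* mice, which lack the inhibitory receptor CD300a in every cell from the germline, were on the C57BL/6 background. All were males of 8 to 12 weeks whose left anterior descending artery was tied for 60 minutes before reperfusion, and no group without MI/R was included. Depth, as the total of all gene counts, was 19278243 for the WT and 17632989 for the *Cd300a-/-* library of SiglecF hi neutrophils, and 9631901 for the WT and 10988619 for the *Cd300a-/-* library of SiglecF lo neutrophils.

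Glycolysis turns glucose into pyruvate in the cytosol, and neutrophils, which hold few mitochondria, draw most of their ATP from it and release the carbon as lactate. Low oxygen stabilizes the transcription factor subunit HIF-1α, which in normal oxygen is hydroxylated by prolyl hydroxylases and degraded. HIF-1α raises transcription of most glycolytic genes and of genes for mitophagy, collagen hydroxylation and the shunting of pyruvate away from mitochondrial oxidation. It also supports survival of neutrophils in inflamed tissue.

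Levels are given as TPM (transcripts scaled to a fixed library total), which allow for gene length and library and can therefore be set side by side between genes. Wherever 4 values are listed, they stand in the order WT SiglecF hi, *Cd300a-/-* SiglecF hi, WT SiglecF lo and *Cd300a-/-* SiglecF lo. Differences between libraries are log2((TPM + 1) ratios) centred on the median of the 6523 genes with a mean TPM over 10, because the median gene itself lay 0.53 higher in SiglecF hi than in SiglecF lo neutrophils of WT and 0.61 higher in those of *Cd300a-/-* mice. Between genotypes this median was 0.038 for SiglecF hi and -0.016 for SiglecF lo neutrophils. A gene was called higher or lower past 0.5 on this scale, and a gene with a ratio of 0 moved like the median gene. Each group is a single library, so no difference here was checked in replicates, and the 95% intervals in parentheses cover the error of counting only, taking reads as independent molecules, which without molecular identifiers they are not. Of the 34 genes, 31 had a mean TPM over 10, 21 of glycolysis and 10 of the hypoxia response, and *Pfkm*, *Pdk1* and *Adm* did not.

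*Cd300a*, the deleted gene, had 6640, 27, 3024 and 28 counts in the 4 libraries, and its centred ratio of *Cd300a-/-* to WT was -6.60 (-6.83 to -6.36) for the SiglecF hi and -5.94 (-6.22 to -5.66) for the SiglecF lo libraries. All 11 neutrophil genes checked were detected in each library, with *S100a9* the most abundant, and they summed to 38756, 46012, 164566 and 210561 TPM. *Siglecf*, which the sort used, was at 354, 405, 11.3 and 15.3 TPM. *Ly6g*, also used in the sort, was at 11.1, 41.9, 330.4 and 889 TPM, and was thus far lower in both SiglecF hi libraries.

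Relative to the median gene, most glycolysis genes were lower in SiglecF hi than in SiglecF lo neutrophils. In WT, 19 of 31 members were called lower, against 20.9% of all genes tested, and 0 were called higher, against 19.3%. In *Cd300a-/-* mice 22 of 31 were lower, against 23.6% of all genes, and 1 was higher, against 21.2%. Glycolysis held most of these, with 14 of 21 genes lower in WT and 18 of 21 in *Cd300a-/-* neutrophils, and its median ratio was -0.61 in WT and -0.79 in *Cd300a-/-* neutrophils, beside 0 for all genes by centring. Of the 10 hypoxia response genes 5 were lower in WT, while 4 were lower and 1 higher in *Cd300a-/-* neutrophils, with medians of -0.44 and -0.44. In both genotypes together 17 members were lower, against 13.9% of all genes, and 0 were higher, against 9.2%. The WT and *Cd300a-/-* ratios come from separate libraries, but each library also enters a genotype ratio. The members were chosen with earlier results of these data known, so their shares beside those of all genes are a description only.

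These calls depend on the centring. Without it, 4 members were lower and 6 higher in WT SiglecF hi neutrophils past 0.5, and 9 were lower and 4 higher in *Cd300a-/-* SiglecF hi neutrophils. On that scale 7.47% of all genes were lower and 51.9% higher in WT, and 7.97% lower and 56.6% higher in *Cd300a-/-* SiglecF hi neutrophils. The uncentred glycolysis medians were -0.081 and -0.18, and the hypoxia medians turned to 0.082 and 0.17. *Slc2a3*, *Gpi1*, *Pfkfb4* and *Slc16a3* were the 4 lower without centring in WT, and *Slc2a1*, *Hk3*, *Pgk1*, *Pkm* and *Hif1a* joined them in *Cd300a-/-* neutrophils. *Hk2*, *Egln1*, *P4ha1* and *Mif* were higher without centring in both genotypes, and *Pfkl* and *Pgam1* in WT alone. Members with a ratio above 0 numbered 5 of 31 in WT and 4 in *Cd300a-/-* neutrophils with centring, and 12 and 13 without it. Counts scaled by TMM, which leaves out genes of extreme ratio or level when it scales a library, gave 19 lower and 0 higher in WT, and 21 lower and 2 higher, *Egln1* and *Hk2*, in *Cd300a-/-* neutrophils. The 10 most abundant genes held 12.3, 11.8, 22.8 and 26.7% of all TPM, a larger part in both SiglecF lo libraries.

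As a plain level that needs no ratio, the 22 glycolysis genes summed to 5389.5, 5317, 6358 and 7433 TPM, or 0.539, 0.532, 0.636 and 0.743% of all TPM. The sum was highest in *Cd300a-/-* SiglecF lo neutrophils and lowest in *Cd300a-/-* SiglecF hi neutrophils. The 12 hypoxia response genes summed to 1119, 1074, 910.3 and 817 TPM, with the 2 SiglecF hi libraries above the SiglecF lo libraries. *Mif*, the most abundant of these 12 in every library, made that order, since the other 11 summed to 549.9, 589.7, 545 and 566 TPM, with no split by subset. *Pkm* was the most abundant of the glycolysis genes in every library. By TPM, 14 of the 21 glycolysis genes over the limit peaked in the *Cd300a-/-* SiglecF lo library, 4 and 2 in the SiglecF hi libraries of WT and *Cd300a-/-* mice, and 1 in the WT SiglecF lo library. Among all 6523 genes the *Cd300a-/-* SiglecF lo library was the peak for 922, the SiglecF hi libraries of WT and *Cd300a-/-* mice for 2295 and 2761, and the WT SiglecF lo library for 545.

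**Figure D1:**
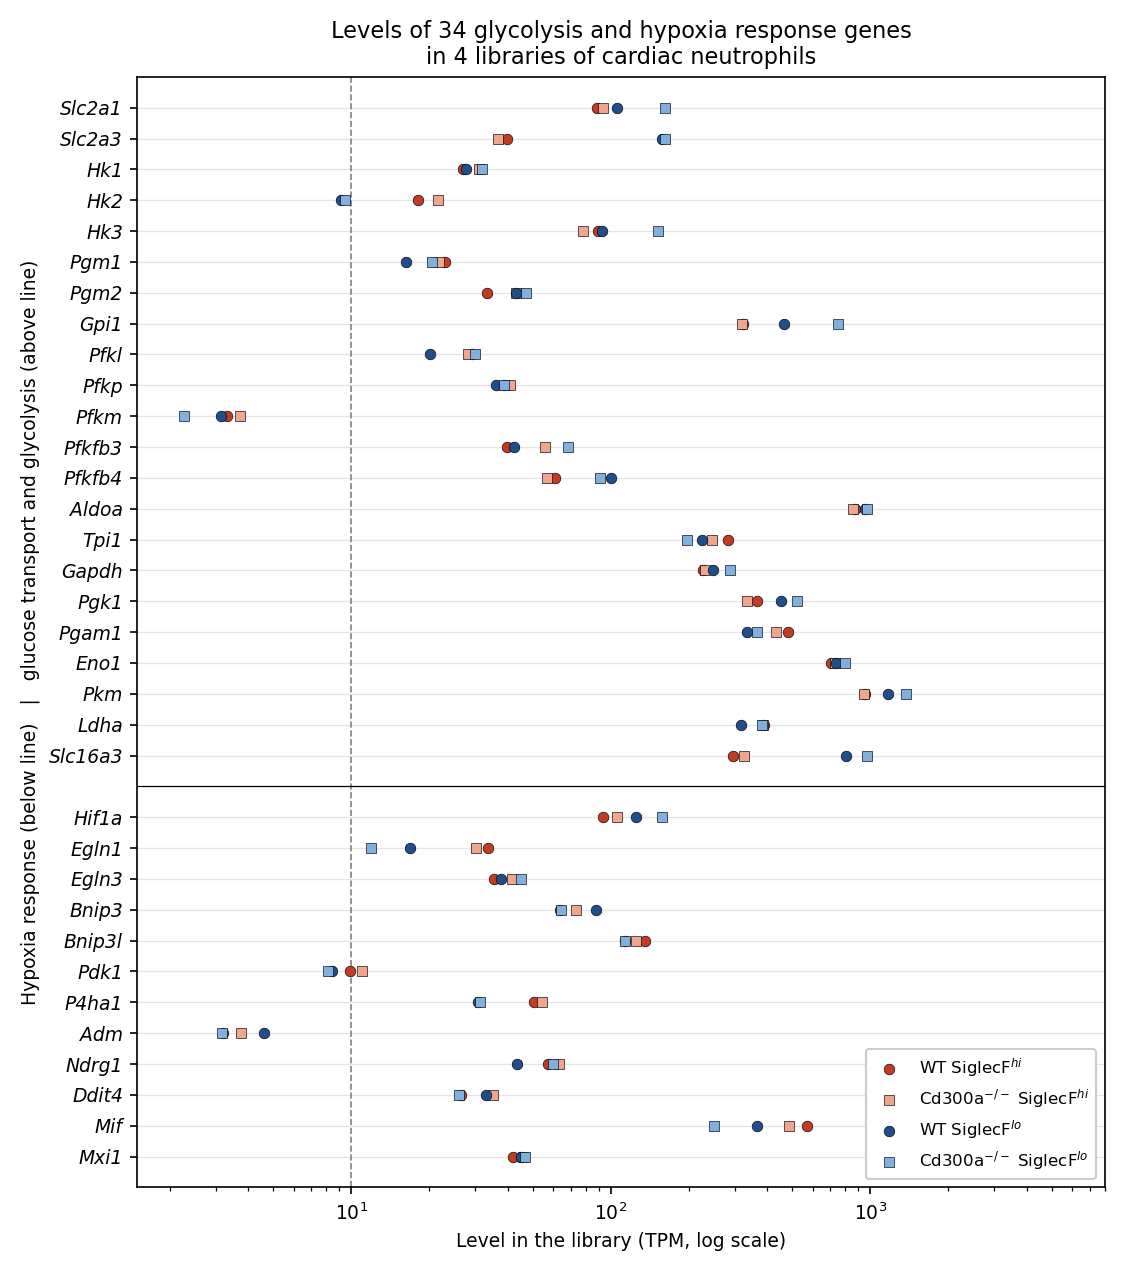
TPM on a log axis of the 34 genes, 1 point per library, with circles for WT, squares for *Cd300a-/-*, red for SiglecF hi and blue for SiglecF lo neutrophils, and a dashed line at 10 TPM. *Slc2a3* and *Slc16a3* show both blue points well to the right of both red points, *Egln1* and *Hk2* the reverse, and *Pfkm* and *Adm* lie under 10 TPM in all 4 libraries.

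Glucose enters through carriers of the SLC2A family. *Slc2a3* (ENSMUSG00000003153, chromosome 6 from 122704768 to 122778599), which encodes the high-affinity carrier GLUT3, had 1535, 1272, 3563 and 4027 counts, or 39.7, 36.7, 157 and 161 TPM. Both SiglecF lo libraries were far above both SiglecF hi libraries, and the genotypes lay close within each subset. Its ratio of SiglecF hi to SiglecF lo was -2.49 (-2.57 to -2.40) in WT and -2.72 (-2.81 to -2.63) in *Cd300a-/-* neutrophils, the lowest of the 31 members in both genotypes. *Slc2a1*, for the widespread carrier GLUT1, had 2715, 2567, 1905 and 3208 counts, or 88.2, 93.2, 106 and 161 TPM. Only the *Cd300a-/-* SiglecF lo library stood out, above the other 3. Its subset ratio was -0.78 (-0.87 to -0.70) in WT and -1.40 (-1.47 to -1.32) in *Cd300a-/-* neutrophils. Within a library the log2 ratio of *Slc2a3* to *Slc2a1* TPM, which no scaling of the library can alter, was -1.15 (-1.24 to -1.06) and -1.34 (-1.44 to -1.25) in WT and *Cd300a-/-* SiglecF hi neutrophils. It was 0.57 (0.49 to 0.65) in WT SiglecF lo and -0.0026 (-0.070 to 0.064) in *Cd300a-/-* SiglecF lo neutrophils, so GLUT1 transcripts prevailed in both SiglecF hi libraries, GLUT3 transcripts in WT SiglecF lo neutrophils, and the 2 were level in *Cd300a-/-* SiglecF lo neutrophils. Of the summed TPM of 12 SLC2A genes, *Slc2a6*, for a carrier of lysosomal membranes, held 40.6, 48.2, 38.7 and 46.2% and *Slc2a3* held 16.1, 12.7, 34.8 and 26.4%.

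Hexokinases trap glucose in the cell by phosphorylation. *Hk3*, the form typical of myeloid cells, had 2617, 2049, 1593 and 2895 counts, or 88.9, 77.8, 92.4 and 152 TPM. The *Cd300a-/-* SiglecF lo library was again the highest and the other 3 lay close together. Its subset ratio was -0.58 (-0.67 to -0.49) in WT and -1.57 (-1.65 to -1.49) in *Cd300a-/-* neutrophils. *Hk1*, the widespread form bound to mitochondria, had 1478, 1519, 892 and 1133 counts, or 27.0, 30.95, 27.8 and 32.0 TPM. Its TPM was nearly level over the libraries, so after centring the ratio was -0.57 (-0.68 to -0.45) in WT and -0.66 (-0.77 to -0.55) in *Cd300a-/-* neutrophils. *Hk2*, the inducible form and a classical HIF-1 target, had 950, 1008, 281 and 321 counts, or 18.1, 21.5, 9.16 and 9.49 TPM. Both SiglecF hi libraries were above both SiglecF lo libraries, which were under 10 TPM, and the centred ratios of 0.39 in WT and 0.49 in *Cd300a-/-* neutrophils stayed within 0.5. *Hk3* made up 65.8, 59.7, 71.4 and 78.6% of the TPM of 5 hexokinase genes. *Hk2* made up 13.4, 16.5, 7.08 and 4.90%, a larger share in SiglecF hi than in SiglecF lo neutrophils of either genotype. The log2 ratio of *Hk2* to *Hk3* was -2.29 (-2.40 to -2.19), -1.86 (-1.96 to -1.75), -3.33 (-3.52 to -3.15) and -4.00 (-4.17 to -3.84).

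*Gpi1* (ENSMUSG00000036427, chromosome 7 from 33900755 to 33929761) encodes glucose phosphate isomerase, which converts the hexokinase product to its fructose form. It had 8274, 7383, 6968 and 12440 counts, or 322, 321, 464 and 751 TPM. The SiglecF hi libraries were level with each other, WT SiglecF lo was above them and *Cd300a-/-* SiglecF lo neutrophils were highest. The subset ratio was -1.05 (-1.10 to -1.004) in WT and -1.83 (-1.88 to -1.79) in *Cd300a-/-* neutrophils. Phosphoglucomutases connect this step with glycogen. *Pgm1* had 591, 498, 243 and 340 counts, or 23.1, 21.7, 16.2 and 20.5 TPM, lowest in WT SiglecF lo neutrophils. *Pgm2* had 693, 801, 524 and 635 counts, or 33.3, 43.0, 43.0 and 47.3 TPM, lowest in WT SiglecF hi neutrophils. *Pgm2* was lower in SiglecF hi neutrophils of both genotypes after centring, at -0.89 (-1.05 to -0.73) and -0.75 (-0.89 to -0.60). *Pgm1* passed 0.5 in *Cd300a-/-* neutrophils alone, at -0.54 (-0.73 to -0.35), and turned to 0.076 without centring.

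Phosphofructokinase commits sugar to glycolysis and is the main point of control. *Pfkp*, the platelet-type subunit, had 1571, 1486, 858 and 1018 counts, or 38.6, 40.8, 36.0 and 38.7 TPM, a narrow range. *Pfkl*, the liver-type subunit, had 973, 839, 392 and 645 counts, or 29.1, 28.0, 20.0 and 29.9 TPM, with WT SiglecF lo neutrophils below the other 3 libraries. *Pfkm*, the muscle-type subunit, was under the limit with 43 to 98 counts. Of the summed TPM of the 3 subunits, *Pfkp* held 54.4, 56.2, 60.8 and 54.6% and was the leading form in every library. Past 0.5, *Pfkl* was lower in *Cd300a-/-* SiglecF hi neutrophils at -0.70 (-0.84 to -0.56), against -0.0086 in WT. *Pfkp* was at -0.54 (-0.65 to -0.43) in *Cd300a-/-* neutrophils, but at 0.073 without centring. The bifunctional PFKFB enzymes make or remove the sugar phosphate that activates phosphofructokinase. *Pfkfb3*, the form with the strongest kinase activity, had 1949, 2450, 1209 and 2154 counts, or 39.9, 56.0, 42.2 and 68.2 TPM. Both *Cd300a-/-* libraries were above both WT libraries. *Pfkfb4* had 1968, 1636, 1884 and 1885 counts, or 61.1, 56.8, 99.97 and 90.7 TPM. Here the split was by subset, with both SiglecF lo libraries above both SiglecF hi libraries. Ratios of SiglecF hi to SiglecF lo were -1.23 (-1.32 to -1.14) in WT and -1.28 (-1.37 to -1.18) in *Cd300a-/-* neutrophils for *Pfkfb4*. For *Pfkfb3* they were -0.61 (-0.71 to -0.51) and -0.89 (-0.98 to -0.81). *Pfkfb3* supplied 38.0, 47.9, 29.6 and 42.6% of the TPM of the 4 PFKFB genes, more in *Cd300a-/-* than in WT neutrophils of either subset.

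**Figure D2:**
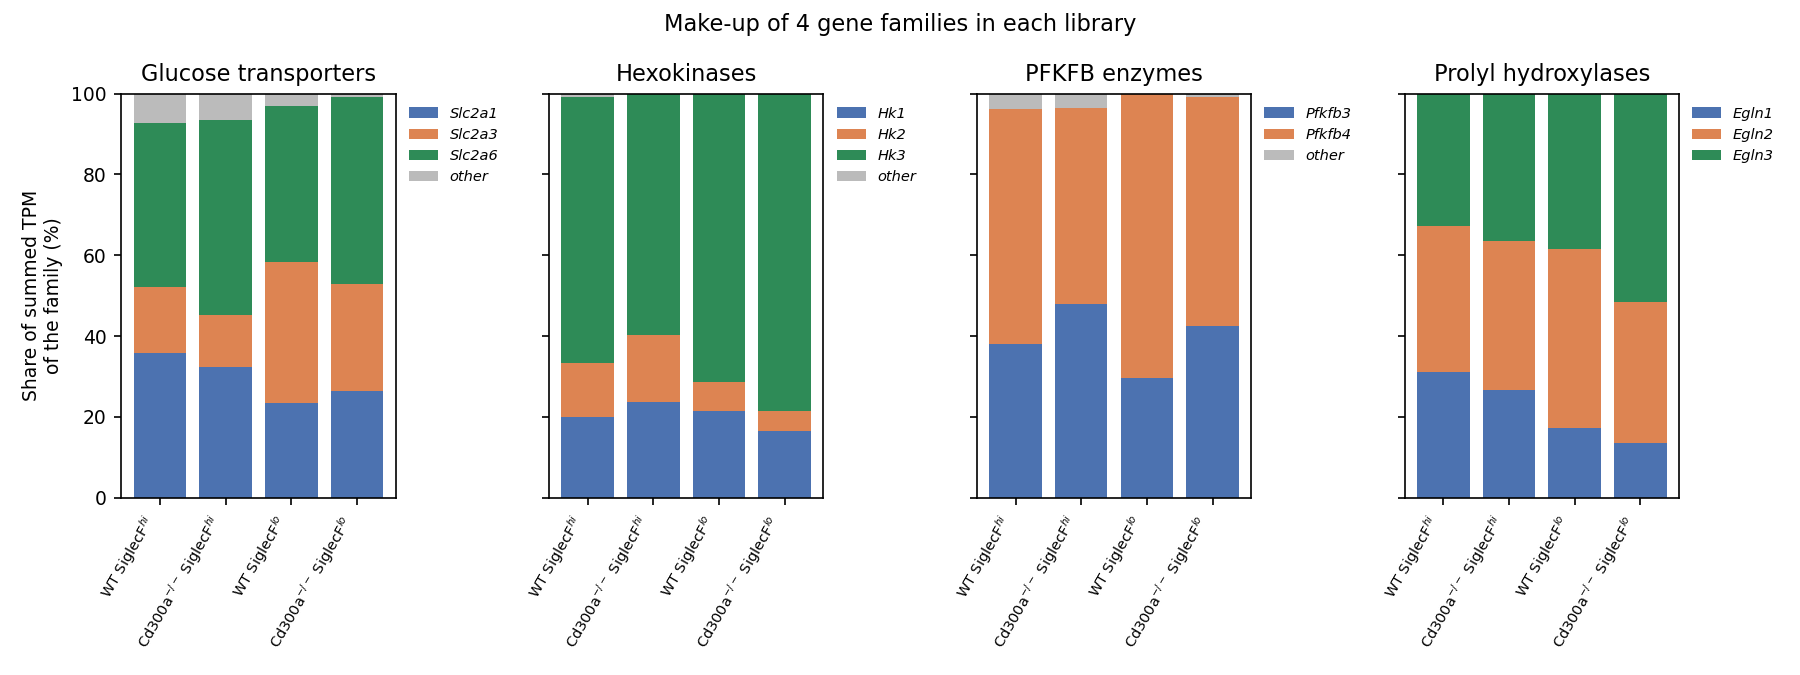
Percent of the summed TPM of 4 gene families held by each gene in each of the 4 libraries, as stacked bars that add up to 100%. *Hk3* leads the hexokinases everywhere, and *Slc2a3* and *Egln1* shift between SiglecF hi and SiglecF lo neutrophils in opposite directions.

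The lower part of the pathway splits the sugar and harvests ATP, and its enzymes were among the most abundant transcripts of the group. *Aldoa*, for the aldolase that cleaves the hexose, had 17538, 15363, 11211 and 12559 counts, or 874, 855, 954 and 969 TPM. *Tpi1*, for the isomerase that interconverts the triose products, had 4376, 3398, 2031 and 1962 counts, or 283, 245, 224 and 196 TPM. *Aldoa* was nearly level and *Tpi1* was highest in WT SiglecF hi neutrophils. *Gapdh*, for the dehydrogenase that yields NADH, had 3676, 3345, 2364 and 3022 counts, or 226, 230.1, 249 and 288 TPM. *Pgk1*, for phosphoglycerate kinase, the first ATP-producing step, had 5988, 4897, 4328 and 5528 counts, or 366, 334, 452 and 523 TPM. Both genes were highest in *Cd300a-/-* SiglecF lo neutrophils, and for *Pgk1* both SiglecF lo libraries lay above both SiglecF hi libraries. *Pgam1*, for phosphoglycerate mutase, had 7516, 6020, 3040 and 3673 counts, or 483, 432, 333 and 365 TPM. *Eno1*, for enolase, had 17929, 16647, 10976 and 13069 counts, or 707, 733, 739 and 798 TPM. *Pgam1* was the reverse of *Pgk1*, with both SiglecF hi libraries on top, and *Eno1* was close to level. *Pkm*, for the pyruvate kinase of the last ATP-producing step, had 31952, 28373, 22959 and 29896 counts, or 951, 944, 1167 and 1378 TPM. It ranked 170, 168, 125 and 93 by TPM among all genes of the respective library.

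The subset ratios, after centring, set these levels against the median gene. *Pgk1* was at -0.83 (-0.89 to -0.77) in WT and -1.26 (-1.31 to -1.202) in *Cd300a-/-* neutrophils. *Pkm* was at -0.82 (-0.85 to -0.80) and -1.16 (-1.18 to -1.14). *Gapdh* was at -0.66 (-0.74 to -0.59) and -0.94 (-1.01 to -0.87). *Aldoa* and *Eno1*, whose TPM barely differed, were called lower by the centring, that is against a median gene that was higher in SiglecF hi neutrophils. The ratio of *Aldoa* was -0.65 (-0.69 to -0.62) in WT and -0.79 (-0.83 to -0.76) in *Cd300a-/-* neutrophils. For *Eno1* it was -0.59 (-0.62 to -0.56) and -0.73 (-0.77 to -0.70). *Tpi1*, at -0.19 and -0.29, and *Pgam1*, at 0.0059 and -0.37, stayed within 0.5 in both genotypes. Without centring *Tpi1* was at 0.33 and 0.32 and *Pgam1* at 0.53 and 0.24, all above 0, since TPM of these genes were higher in SiglecF hi neutrophils. From hexokinase to lactate dehydrogenase, 8 of 14 enzyme genes were lower in both genotypes, against 13.9% of all genes. Without centring 1 of the 14, *Gpi1*, was lower and 3 higher in WT, and 4, *Gpi1* among them, were lower and 1 higher in *Cd300a-/-* SiglecF hi neutrophils.

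Genes of this stretch have many near-identical retrocopies, and how the authors' counting assigned reads shared with them is not given in the sources used here. Of 9940 processed pseudogenes of the GENCODE M21 annotation 3 were entries of the count tables. *Eno1b*, a retrocopy of *Eno1* also picked after its values were seen, was at 0.0607, 4.14, 5.08 and 22.8 TPM. The levels of *Eno1*, *Gapdh*, *Tpi1*, *Pgk1*, *Pgam1*, *Aldoa*, *Ldha* and *Mif* are uncertain for this reason, by an amount that was not measured. The regions of 12 of the 34 genes overlapped another entry, mostly on the opposite strand. The most abundant of these neighbours was *Csnk1d*, which overlaps *Slc16a3*, was picked after its values were seen and had 2545, 2477, 1230 and 1561 counts.

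Lactate dehydrogenase A regenerates NAD+ by reducing pyruvate. *Ldha* had 8990, 7968, 4291 and 5685 counts, or 391, 387, 319 and 383 TPM, lowest in WT SiglecF lo neutrophils and alike in the other 3 libraries. It held 95.9, 96.3, 96.3 and 97.8% of the TPM of *Ldha* and *Ldhb*. Its subset ratio was -0.23 in WT and -0.60 (-0.65 to -0.55) in *Cd300a-/-* neutrophils, where it turned to 0.016 without centring. *Slc16a3* (ENSMUSG00000025161, chromosome 11 from 120839306 to 120851694) encodes MCT4, the carrier that exports lactate from glycolytic cells. It had 12161, 11934, 19304 and 25669 counts, or 297, 325, 804 and 969 TPM. Both SiglecF lo libraries were more than 2-fold above both SiglecF hi libraries. The ratio was -1.96 (-1.99 to -1.93) in WT and -2.19 (-2.22 to -2.15) in *Cd300a-/-* neutrophils, second only to *Slc2a3*, so a glucose carrier and the lactate carrier had the lowest ratios. Only 1.55% of the 6523 genes had a lower ratio than *Slc16a3* in WT and 1.84% in *Cd300a-/-* neutrophils, and for *Slc2a3* these shares were 0.843% and 0.935%. *Slc16a3* held 97.5, 98.01, 99.2 and 99.6% of the TPM of 3 monocarboxylate carrier genes.

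**Figure D3:**
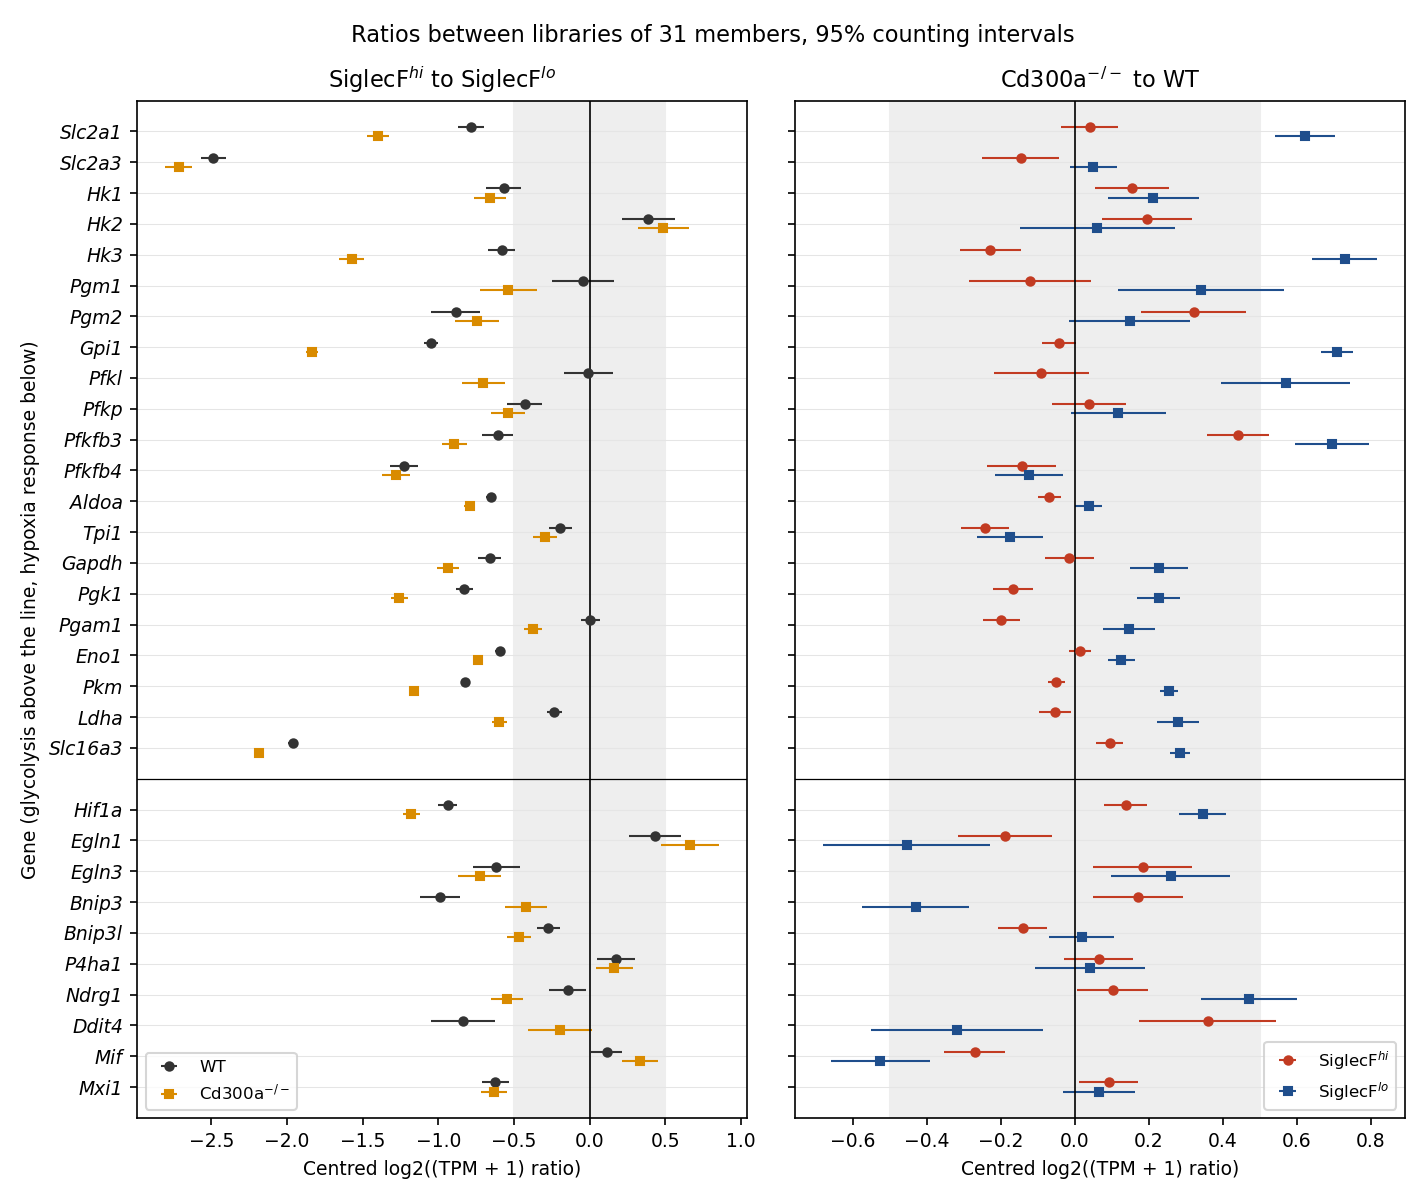
Centred log2((TPM + 1) ratios) of the 31 genes with a mean TPM over 10, SiglecF hi to SiglecF lo in WT and *Cd300a-/-* neutrophils on the left and *Cd300a-/-* to WT in both subsets on the right, with 95% counting intervals as bars and the range within 0.5 shaded. On the left most glycolysis genes lie below 0, down to *Slc2a3* at -2.49 and -2.72, though without centring 7 of 21 in WT and 6 in *Cd300a-/-* neutrophils lie above 0, where 2 and 1 do here, and of the values past 0.5 those of *Pgm1*, *Pfkp*, *Ldha* and *Ndrg1* in *Cd300a-/-* neutrophils turn above 0, and on the right 5 genes lie above the range and *Mif* below it, in SiglecF lo neutrophils alone.

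*Hif1a* (ENSMUSG00000021109, chromosome 12 from 73948149 to 73994304), for the oxygen-regulated subunit itself, had 4475, 4529, 3492 and 4849 counts, or 93.6, 106, 125 and 157 TPM. Both SiglecF lo libraries were above both SiglecF hi libraries, and each *Cd300a-/-* library was above the WT library of its subset. The subset ratio was -0.94 (-1.0002 to -0.87) in WT and -1.18 (-1.24 to -1.12) in *Cd300a-/-* neutrophils. The transcript level says nothing about the amount of HIF-1α protein, which oxygen regulates after translation and which was not measured. *Hif1a* made up 84.9, 85.0, 82.7 and 86.5% of the TPM of the 3 HIF-α genes. *Egln1*, for PHD2, the main prolyl hydroxylase that marks HIF-1α for degradation, had 1061, 853, 311 and 242 counts, or 33.6, 30.2, 16.8 and 11.9 TPM. It ran opposite to *Hif1a*, with both SiglecF hi libraries above both SiglecF lo libraries. It was the only member called higher in SiglecF hi neutrophils, at 0.66 (0.47 to 0.86) in *Cd300a-/-* neutrophils and 0.43 in WT. *Egln3*, for PHD3, a hydroxylase that HIF-1 itself induces, had 828, 868, 517 and 678 counts, or 35.4, 41.5, 37.8 and 44.9 TPM. Its TPM varied little, and its centred ratio was -0.62 (-0.77 to -0.46) in WT and -0.73 (-0.87 to -0.58) in *Cd300a-/-* neutrophils. Within a library, which needs no scaling, the log2 ratio of *Egln3* to *Egln1* was 0.075 (-0.056 to 0.21) and 0.46 (0.32 to 0.59) in WT and *Cd300a-/-* SiglecF hi neutrophils. It was 1.17 (0.96 to 1.37) and 1.92 (1.71 to 2.13) in WT and *Cd300a-/-* SiglecF lo neutrophils, above both SiglecF hi values.

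Among the target genes, *Bnip3* and *Bnip3l* encode receptors for the removal of mitochondria. *Bnip3* had 1034, 1073, 838 and 676 counts, or 63.5, 73.6, 87.9 and 64.3 TPM, highest in WT SiglecF lo neutrophils. *Bnip3l*, for NIX, had 3882, 3234, 1903 and 2103 counts, or 135, 126, 113 and 113 TPM, with both SiglecF hi libraries slightly on top. *Bnip3* was lower in WT SiglecF hi neutrophils at -0.99 (-1.12 to -0.86), and at -0.42 in *Cd300a-/-* neutrophils, while *Bnip3l* stayed within 0.5. *Mif*, for a cytokine that HIF-1 induces, had 2715, 2068, 1020 and 772 counts, or 569, 484, 365 and 250.4 TPM. Both SiglecF hi libraries were above both SiglecF lo libraries, yet after centring the ratio was only 0.11 in WT and 0.33 in *Cd300a-/-* neutrophils. *P4ha1*, for a subunit of the collagen prolyl hydroxylase, had 1822, 1754, 649 and 729 counts, or 50.5, 54.3, 30.7 and 31.3 TPM. It showed the same order, with ratios of 0.17 and 0.16. *Ndrg1*, a stress-induced gene, had 1677, 1658, 750 and 1141 counts, or 57.0, 63.0, 43.6 and 60.1 TPM, lowest in WT SiglecF lo neutrophils. *Ddit4*, for REDD1, an inhibitor of mTORC1, had 406, 483, 297 and 258 counts, or 26.4, 35.0, 32.9 and 25.9 TPM, highest in *Cd300a-/-* SiglecF hi neutrophils. *Mxi1*, for an antagonist of MYC, had 2449, 2403, 1536 and 1755 counts, or 41.9, 46.0, 44.9 and 46.5 TPM, the narrowest range of the group. Past 0.5, *Ndrg1* was lower in *Cd300a-/-* SiglecF hi neutrophils at -0.55 (-0.65 to -0.44), but at 0.067 without centring. *Ddit4* was lower in WT at -0.84 (-1.05 to -0.63). *Mxi1* was lower in both genotypes, at -0.62 (-0.71 to -0.53) and -0.63 (-0.72 to -0.54). Under the limit, *Pdk1*, for a kinase that inhibits pyruvate dehydrogenase, had 225 to 448 counts, and *Adm*, for the vasodilator adrenomedullin, had 25 to 41.

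Between genotypes the members differed far less in SiglecF hi than in SiglecF lo neutrophils, and the same held for genes at large. Over all 6523 genes the standard deviation of the ratio of *Cd300a-/-* to WT was 0.31 for the SiglecF hi libraries, against 0.64 for the SiglecF lo pair. This contrast was thus not particular to the members. In SiglecF hi neutrophils 0 of 31 were called higher in *Cd300a-/-*, against 2.64% of all genes, and 0 lower, against 4.09%. The ratios ran from -0.27 for *Mif* to 0.44 for *Pfkfb3*, with medians of -0.050 for glycolysis and 0.10 for the hypoxia response. In SiglecF lo neutrophils 5 of 31 were higher in *Cd300a-/-*, against 17.2% of all genes, and 1 was lower, against 19.1%. The share of 5 in 31 was not above that of all genes, while 19 of the 21 glycolysis genes lay above 0, and their median was 0.23, beside 0.030 for the hypoxia response genes. Of the 5 higher, *Hk3* was at 0.73 (0.64 to 0.82), *Gpi1* at 0.71 (0.67 to 0.75) and *Pfkfb3* at 0.69 (0.60 to 0.79). *Slc2a1* was at 0.62 (0.54 to 0.70) and *Pfkl* at 0.57 (0.40 to 0.74). The gene called lower was *Mif*, at -0.53 (-0.66 to -0.39). Below phosphofructokinase, *Pkm* was at 0.25, *Ldha* at 0.28 and *Slc16a3* at 0.28, all within 0.5. In both subsets together 0 members were higher, against 0.981% of all genes, and 0 lower, against 1.79%.

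Set against each other, the genotype ratio in SiglecF hi minus that in SiglecF lo neutrophils was past 0.5 for 2 members upward, against 18.1% of all genes, and for 4 downward, against 16.2%. The 4 were *Hk3* at -0.96 (-1.08 to -0.84), *Gpi1* at -0.75 (-0.81 to -0.69), *Pfkl* at -0.66 (-0.88 to -0.44) and *Slc2a1* at -0.58 (-0.69 to -0.47). These had a higher ratio of *Cd300a-/-* to WT in SiglecF lo neutrophils. The 2 upward were *Ddit4*, at 0.68 (0.38 to 0.97), and *Bnip3*, at 0.60 (0.41 to 0.79), which had ratios above 0 in SiglecF hi and below 0 in SiglecF lo neutrophils. The median difference was -0.24 for glycolysis and 0.025 for the hypoxia response genes, beside -0.0056 for all genes. Neither share was above that of all genes.

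In bulk RNA, fewer cells of a type and less RNA per cell cannot be told apart, so transcripts of other cells were read in the same libraries. All 12 macrophage and monocyte genes were detected in each library, with sums of 7472, 6756, 3741 and 3539.9 TPM, and *C1qb* or *C1qa* the most abundant. The 3 C1q genes made the sum higher in both SiglecF hi libraries, and the other 9 summed to 1623, 1560.3, 1614 and 1487 TPM, nearly level. Picked after its values were seen, the monocyte gene *Ly6c2* was at 270.3, 226, 756 and 706 TPM, lower in both SiglecF hi libraries. All 7 fibroblast genes were detected, with sums of 2088, 1475, 964 and 979.8 TPM and *Dcn* the most abundant. All 6 endothelial genes were detected, and these, led by *Fabp4*, summed to 325, 437, 527 and 160.0 TPM and were lowest in *Cd300a-/-* SiglecF lo neutrophils. Of the 12 cardiomyocyte genes 12, 10, 11 and 9 were detected, and they summed to 69.1, 121, 78.7 and 36.9 TPM, led by *Tnnt2*, *Mb*, *Pln* and *Myl2*, with *Nppa* at 0 in all but WT SiglecF hi neutrophils. All 5 erythroid genes were detected, and these, led by *Hba-a2*, summed to 893, 999.7, 1417 and 780.5 TPM. Of the 9 eosinophil genes 7, 5, 3 and 3 were detected, and the defining marker *Epx* was at 0 counts in all 4 libraries, with *Ear2* making up most of the sums of 119, 121, 173 and 87.9 TPM. The sum of the neutrophil genes given above was lower in both SiglecF hi libraries and was mostly *S100a8* and *S100a9*, and the other 9 summed to 14667, 18209, 26424 and 37737 TPM. Of these 9, *Retnlg*, picked after its values were seen, was at 590, 1360, 12110 and 24001.5 TPM, and was thus far lower in both SiglecF hi libraries. Not every gene of that list was lower, as *Siglecf* was higher, and *Il1b*, picked after its values were seen, was at 9987, 12137, 9239 and 6637 TPM. Mitochondrial transcripts held 6.10, 5.77, 4.62 and 4.41% of all TPM, and 7094, 7105, 5666 and 5595 genes were over 10 TPM. Both measures were higher in the SiglecF hi libraries. The part of these cells, of these measures and of the differences in neutrophil transcripts in the ratios of the glycolysis and hypoxia genes was not tested.

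Pathway genes outside the 34 were taken from lists drawn up by function. Of 32 other glycolysis genes 8 had a mean TPM over 10, of which 3 were lower and 1 higher in WT SiglecF hi than SiglecF lo neutrophils (20.9% lower and 19.3% higher of all genes), and 3 lower and 2 higher in *Cd300a-/-* (23.6% and 21.2%), with medians of 0.014 and -0.16. Without centring 2 were lower and 4 higher in WT SiglecF hi neutrophils, and 2 lower and 4 higher in *Cd300a-/-* SiglecF hi neutrophils, with medians of 0.54 and 0.45. Of all genes 7.47% were lower and 51.9% higher in WT on the uncentred scale, and 7.97% and 56.6% in *Cd300a-/-* neutrophils, and these shares also apply to the uncentred counts of the lists below. Named after their values were seen, the others called were *Eno3*, for the muscle enolase, lower in WT at -0.97, *Galm*, for a mutarotase, at -0.58 in *Cd300a-/-* neutrophils but 0.029 without centring, and *Pgam5*, for a mitochondrial phosphatase, higher there at 1.79. *Adpgk*, for a glucokinase that spends ADP, was at 19.0, 28.4, 35.7 and 137 TPM, several-fold above the rest in *Cd300a-/-* SiglecF lo neutrophils. Its subset ratio was -1.40 (-1.59 to -1.22) in WT and -2.84 (-2.97 to -2.71) in *Cd300a-/-* neutrophils, and it was higher in *Cd300a-/-* than in WT in both subsets, at 0.52 (0.34 to 0.69) for the SiglecF hi and 1.92 (1.78 to 2.07) for the SiglecF lo libraries. *Slc2a6* was at 99.8, 139, 175 and 282 TPM, with subset ratios of -1.33 (-1.42 to -1.24) and -1.63 (-1.70 to -1.55). *G6pc3*, for the glucose phosphatase of the endoplasmic reticulum that neutrophils need, was at 24.8, 16.1, 8.97 and 6.04 TPM and ran the other way, at 0.85 (0.52 to 1.18) and 0.67 (0.29 to 1.04).

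The pentose phosphate pathway branches off after hexokinase and supplies NADPH for the oxidative burst. Its 7 genes summed to 1478, 1467, 2649.9 and 3288 TPM, higher in both SiglecF lo libraries. Relative to the median gene 4 of 7 were lower and 0 higher in SiglecF hi neutrophils of either genotype, against 20.9% and 19.3% of all genes in WT and 23.6% and 21.2% in *Cd300a-/-*, with medians of -0.73 in WT and -1.47 in *Cd300a-/-*. Uncentred, the split was 3 lower and 2 higher in WT, 4 lower and 3 higher in *Cd300a-/-* neutrophils, with medians of -0.20 and -0.86. *Taldo1*, for transaldolase, was at 669, 651, 1577 and 1707 TPM, with ratios of -1.76 (-1.80 to -1.72) and -2.003 (-2.04 to -1.96). *G6pdx*, for the enzyme of the entry step, was at 105, 118, 182 and 379.5 TPM, with ratios of -1.32 (-1.40 to -1.24) and -2.28 (-2.35 to -2.22). It was thus highest in *Cd300a-/-* SiglecF lo neutrophils, as *Gpi1* and *Hk3* were. *Tkt*, for transketolase, was at -0.73 and -1.80, and *Pgd*, for the second dehydrogenase of the pathway, at -1.11 and -1.47. For glycogen, on which neutrophils draw in tissue, 7 of 11 genes had a mean TPM over 10, with 4 called lower in SiglecF hi neutrophils of WT, against 20.9% of all genes, and 5 in those of *Cd300a-/-* mice, against 23.6%, 0 higher, and medians of -0.60 and -1.11. Without centring 1 was lower and 2 higher in WT SiglecF hi neutrophils, and 4 lower and 2 higher in *Cd300a-/-* SiglecF hi neutrophils, with medians of -0.076 and -0.50. Chosen after their values were seen, *Ugp2* was lower in WT at -0.77, and *Gyg* and *Ppp1r3d* in *Cd300a-/-* neutrophils at -1.39 and -1.11. *Pygl*, for glycogen phosphorylase, was at 218, 256, 487 and 703 TPM, with ratios of -1.68 (-1.73 to -1.64) and -2.07 (-2.11 to -2.03). *Gys1*, for glycogen synthase, was at -0.60 and -1.24, and *Ppp1r3b*, for a subunit that targets a phosphatase to glycogen, at -0.90 and -0.91.

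Of the genes by which pyruvate enters mitochondria, 7 of 13 had a mean TPM over 10, with medians of -0.25 in WT and -0.28 in *Cd300a-/-* neutrophils. In WT SiglecF hi neutrophils 3 of the 7 were lower and 0 higher (20.9% lower and 19.3% higher of all genes), and in *Cd300a-/-* SiglecF hi neutrophils 2 were lower and 1 higher (23.6% and 21.2%). Uncentred, the split was 2 lower and 3 higher in WT, 0 lower and 3 higher in *Cd300a-/-* neutrophils, with medians of 0.28 and 0.34. Picked after their values were seen, *Mpc2* was lower in WT at -0.62 and *Pdhb*, for a subunit of pyruvate dehydrogenase, higher in *Cd300a-/-* SiglecF hi neutrophils at 1.06. *Mpc1*, for a subunit of the pyruvate carrier, was at -1.28 (-1.37 to -1.18) in WT and -1.09 (-1.199 to -0.98) in *Cd300a-/-* neutrophils. *Pdk3*, for a kinase that inhibits pyruvate dehydrogenase, was at -1.30 (-1.53 to -1.07) and -0.81 (-1.04 to -0.58), and held 45.7, 52.5, 61.9 and 65.5% of the TPM of the 4 PDK genes, more than *Pdk1* in every library. Nuclear genes of oxidative phosphorylation, 80 of 97 over the limit, had medians of 0.017 in WT and 0.38 in *Cd300a-/-* neutrophils for SiglecF hi against SiglecF lo, where the glycolysis genes were at -0.61 and -0.79. In WT 6 of the 80 were higher and 5 lower, against 19.3% and 20.9% of all genes, and in *Cd300a-/-* 25 were higher and 3 lower, against 21.2% and 23.6%. Without centring 1 was lower and 43 higher in WT SiglecF hi neutrophils, and 2 lower and 69 higher in *Cd300a-/-* SiglecF hi neutrophils, with medians of 0.54 and 0.99, against 51.9% and 56.6% of all genes higher. Called in both genotypes were *Ndufa4l2*, for a HIF-induced subunit paralog, lower at -1.68 and -1.97, and 4 subunit genes that were higher, *Ndufc1* at 0.66 and 0.82, *Ndufs6* at 0.78 and 0.64, *Atp5g2* at 0.63 and 1.35, and *Atp5o*, entered as Atp5o_2, at 0.59 and 0.85. Named after their values were seen, *Ndufb4* was also higher in both, at 0.70 and 0.56, and *Sdhd*, for a subunit of succinate dehydrogenase, lower in both, at -0.78 and -0.57, but at 0.042 in *Cd300a-/-* neutrophils without centring. *Ndufa5*, likewise picked, was called in opposite directions, lower in WT at -0.66 and higher in *Cd300a-/-* SiglecF hi neutrophils at 1.03. The others called lower were *Cox7a2l* at -0.55 and *Atp5l* at -0.50, but 0.025 without centring, in WT, and *Ndufaf7* at -1.46 in *Cd300a-/-* neutrophils. Between genotypes in SiglecF lo neutrophils 38 of the 80 were lower in *Cd300a-/-*, against 19.1% of all genes, and 1, *Ndufaf7*, higher, against 17.2%, with a median of -0.47, beside 0.23 for glycolysis. The 97 genes summed to 18217, 17857, 13766 and 9883 TPM, lowest in *Cd300a-/-* SiglecF lo neutrophils.

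Of 12 further genes of the HIF machinery 7 had a mean TPM over 10, with 3 lower and 0 higher in WT SiglecF hi (20.9% lower and 19.3% higher of all genes) and 1 lower and 1 higher in *Cd300a-/-* SiglecF hi neutrophils (23.6% and 21.2%), and medians of -0.26 and -0.16. Without centring 1 was lower and 2 higher in WT SiglecF hi neutrophils, and 0 lower and 3 higher in *Cd300a-/-* SiglecF hi neutrophils, with medians of 0.27 and 0.45. Chosen after their values were seen, *Egln2* and *Siah1a* were lower in WT at -0.67 and -0.63, and *Vhl*, for the ligase that binds hydroxylated HIF-1α, was higher in *Cd300a-/-* SiglecF hi neutrophils at 0.54. *Epas1*, for HIF-2α, was at 16.6, 18.5, 26.2 and 24.4 TPM, with subset ratios of -1.15 (-1.29 to -1.02) and -0.99 (-1.13 to -0.86), and was thus lower in SiglecF hi neutrophils as *Hif1a* was. Of 39 other hypoxia targets 27 had a mean TPM over 10, with 7 lower and 7 higher in WT SiglecF hi and 8 lower and 4 higher in *Cd300a-/-* SiglecF hi neutrophils. Their medians were 0.078 and -0.12, nearer to that of all genes than those of the 10 members. Uncentred, the split was 2 lower and 15 higher in WT, 2 lower and 13 higher in *Cd300a-/-* neutrophils, with medians of 0.60 and 0.49. Over all genes 20.9% were lower and 19.3% higher in WT, and 23.6% and 21.2% in *Cd300a-/-* SiglecF hi neutrophils. *Kdm3a*, for a histone demethylase and picked after its values were seen, was called in opposite directions, at 0.58 in WT and -0.64 in *Cd300a-/-* neutrophils. *Mxd1*, for a MYC antagonist, was at -1.33 and -1.33, and *Anxa2*, for annexin A2, at -1.31 and -1.54. *Tfrc*, for the transferrin receptor, was at 1.72 and 1.11, and *Bhlhe40*, for a transcriptional repressor, at 0.72 and 0.76, both higher in SiglecF hi neutrophils. The other 2 of the 4 higher in *Cd300a-/-*, chosen after their values were seen, were *Ier3* at 0.57 and *Maff* at 0.50. *Fam162a*, for a mitochondrial protein, was at 53.2, 31.7, 71.4 and 31.3 TPM, lower in SiglecF hi neutrophils of both genotypes at -0.94 and -0.60, the latter turning to 0.016 without centring. It was lower in *Cd300a-/-* than in WT in both subsets, at -0.77 (-1.01 to -0.52) for the SiglecF hi and -1.15 (-1.43 to -0.86) for the SiglecF lo libraries.

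The promoters of the members were searched for the core letters of the hypoxia response element. The letters are ACGTG or GCGTG on either strand (CACGT or CACGC on the strand shown). The search covered the 250 bases before each RefSeq gene start of the mouse build GRCm38.p6. In CACGTG the letters match on both strands and overlap. Of the 34 genes 31 were in the promoter table, *Slc2a3*, *Bnip3l* and *Ndrg1* not, and 28 of the 31 had a match at 1 or more of their starts, or 90.3%, against 41.5% of all 27025 genes of the table. Counted by start, 36 of 45 starts of members held a match, against 38.6% of all 32851 starts. *Gpi1*, *Tpi1* and *Mif* had none in this window. A match is a description of the letters and not a binding site. The members were listed for glycolysis and the hypoxia response, and the genes of the table were not limited to those expressed here. The higher share may thus come from the choice of genes and says nothing about the subset ratios. *Hk2*, *Egln1*, *P4ha1* and *Pgam1*, which were not called lower, also had a match, while *Gpi1*, lower in both genotypes, had none. The windows of *Slc16a3* (chr11:120948817-120949066), *Hif1a* (chr12:73907617-73907866) and *Pgk1* (chrX:106186850-106187099), all on the + strand, are shown 5′ to 3′ because, judged by the genotype with the ratio nearer to 0, these genes had the lowest subset ratios among members with a match whose window has at most 30 bases in annotated exons, and the capitals mark the matches.
Slc16a3: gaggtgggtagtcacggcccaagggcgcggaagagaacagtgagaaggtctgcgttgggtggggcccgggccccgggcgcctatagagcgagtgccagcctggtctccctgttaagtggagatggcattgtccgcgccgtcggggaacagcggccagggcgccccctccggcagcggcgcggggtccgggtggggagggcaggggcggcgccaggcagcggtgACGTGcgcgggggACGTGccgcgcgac
Hif1a: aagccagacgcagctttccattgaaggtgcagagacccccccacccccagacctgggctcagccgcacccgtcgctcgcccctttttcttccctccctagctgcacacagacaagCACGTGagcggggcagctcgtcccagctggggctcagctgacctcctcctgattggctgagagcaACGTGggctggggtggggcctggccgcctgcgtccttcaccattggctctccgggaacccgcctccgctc
Pgk1: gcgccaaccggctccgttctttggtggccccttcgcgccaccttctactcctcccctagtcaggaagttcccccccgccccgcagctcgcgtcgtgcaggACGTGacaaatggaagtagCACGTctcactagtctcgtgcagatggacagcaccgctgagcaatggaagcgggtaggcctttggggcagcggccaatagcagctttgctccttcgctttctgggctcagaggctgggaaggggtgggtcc

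In the window of *Slc16a3* the 2 matches begin 27 and 14 bases before the start. *Hif1a* has 3 matches, a pair that overlaps in CACGTG at 135 and 134 bases and another at 70 bases before the start. *Pgk1* has 2 matches, at 150 and 131 bases before the start, 1 on each strand.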

How the data were processed

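The authors deposited 1 table per library with counts, RPKM, TPM and CPM for 25655 genes, and per the study's methods made the TPM with CLC Genomics Workbench 20.0 from poly(A)-selected, paired-end reads; the build given in the submitters' processing notes is GRCm39. Mapping settings, annotation release, strand use and whether counts are of reads or pairs are not given in the sources used here. The deposited counts were used for intervals and TMM scaling, and the deposited TPM for levels and ratios. The RPKM deposited by the authors, and the deposited CPM signal, which carries 1 further factor per library, were read only as a check. Each group had 1 library, so no test between conditions was made.

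Ratios were log2((TPM + 1) ratios) centred on the median of genes with a mean TPM over 10, called past 0.5. Intervals of 95% treat counts as Poisson. All members were named, with counts and TPM where the mean TPM was over 10, and with intervals for ratios past 0.5; from each other list, up to 5 genes with the largest ratio past 0.5 in the same direction in both genotypes or both subsets. Alternatives were a pseudocount of 0.1, a mean TPM over 1, TPM over 10 in at least 1 or in both libraries compared, a threshold of 1, no centring, and TMM-scaled CPM (edgeR 4.0.16, R 4.3.3). The calculation was tested on simulated data, where 199 or 200 of 200 changed genes were recovered in each comparison, with 4 to 14 others called. The simulated counts were Poisson, and the planted changes were all well past 0.5, in either direction. The simulation did not model changes near 0.5, the median shift between the real libraries or noise beyond counting, so it cannot speak for calls affected by these. Lymphocyte markers were also read and are not reported here. The members and lists were chosen with earlier results of these data known. Scripts ran in Python 3.11.15 with matplotlib 3.10.9, pandas 2.3.3 and numpy 2.4.6. Gene overlaps with pseudogenes and exons come from GENCODE M21, and promoter sequences from RefSeq on GRCm38.p6.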

Additional observations from a re-analysis of the deposited data

How the results depend on the processing

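Of 54 single ratios and differences called past 0.5, 300 alternative values were computed, and 4 of these reversed, all for SiglecF hi against SiglecF lo in *Cd300a-/-* neutrophils without centring: *Pgm1* at 0.076, *Pfkp* at 0.073, *Ldha* at 0.016 and *Ndrg1* at 0.067. Without centring, the counts of members became 6 higher and 4 lower in WT and 4 higher and 9 lower in *Cd300a-/-* neutrophils, the glycolysis medians -0.081 and -0.18, the hypoxia medians 0.082 and 0.17, and the glycolysis median of *Cd300a-/-* against WT in SiglecF hi neutrophils -0.012. The cause was not tested beyond the shift of the median gene, which is what centring removes. With TPM over 10 in both libraries compared, 1 member, *Egln1*, was higher in WT SiglecF hi neutrophils, the glycolysis median was -0.54, and the members lower went from 19 of 31 to 16 of 30 in WT, without *Hk1*, *Hk3* and *Eno1*, and from 22 of 31 to 18 of 30 in *Cd300a-/-* neutrophils, without *Pgm1*, *Pfkp*, *Ldha* and *Ndrg1*. With a pseudocount of 0.1, and likewise with TMM, 2 members, *Egln1* and *Hk2*, were higher in *Cd300a-/-* SiglecF hi neutrophils. A threshold of 1 left 4 lower in WT, 9 lower and 0 higher in *Cd300a-/-* SiglecF hi neutrophils, and 0 higher and 0 lower between genotypes in SiglecF lo neutrophils. With a mean TPM over 1, 21 of 34 members were lower in WT, and the hypoxia median of *Cd300a-/-* against WT in SiglecF lo neutrophils turned from 0.030 to -0.00097. Every other count stayed within 1.5 times its value and every other median kept its sign, and with TMM, which reversed no called value, *Pgm1* in *Cd300a-/-* neutrophils was no longer past 0.5. The difference of genotype ratios was recomputed only with the pseudocount of 0.1 and with TMM. The SiglecF lo libraries hold about 1 count for every 2 of the SiglecF hi libraries, so intervals are wider for genes low in SiglecF lo neutrophils. Pools of 8 hearts hide the spread between animals.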
